A study of Mus musculus with 5 samples.

Results

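GABA, the main inhibitory transmitter of the cortex, is handled by a small set of enzymes and carriers, and 9 of their genes were examined in embryonic mouse cortical cells made to express Ptf1a, the bHLH factor needed for inhibitory neurons of the dorsal horn, retina and cerebellum. The 9 genes, taken by symbol from the 23234 gene rows of the deposited table, were the synthetic enzymes Gad1 and Gad2, the vesicular transporter Slc32a1, the membrane transporters Slc6a11 and Slc6a13, the breakdown enzymes Abat and Aldh5a1, and the chloride cotransporters Slc12a2 and Slc12a5. All 9 had a row.

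The cells came from CD1 embryos whose cortices were electroporated at E12.5 and harvested 3 days later, at E15.5, and both groups carried GFP, by which the cells were sorted. The Ptf1a group (3 samples) received a construct expressing Ptf1a with GFP, and the GFP-only group (2 samples) received the control construct. Each sample pooled 3 to 6 brains, so no value belongs to a single embryo, and the labels give neither the promoter of the construct nor the share of cells that kept it. Ptf1a itself stood at 38.9 FPKM in the Ptf1a group and 0.210 FPKM in the GFP-only group. FPKM is fragments scaled to transcript length and sequencing depth, so levels can be set side by side between genes. The files hold 1 FPKM value per gene and group, made by the authors from all samples of the group. No value per sample, no SD and no depth per sample can therefore be given, and the error of a gene is known only through the authors' own test. The labels call the cells pyramidal, and all 13 pyramidal neuron markers examined were tested, with Neurod6, a factor of these neurons, at 1189.7 FPKM in the Ptf1a group and 1717 FPKM in the GFP-only group.

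GABA is made from glutamate by the decarboxylases that Gad1 and Gad2 encode, loaded into synaptic vesicles by the Slc32a1 product, retrieved by the Slc6 transporters and broken down in mitochondria by the Abat and Aldh5a1 enzymes in turn. Whether GABA inhibits a cell depends on its chloride gradient, which Slc12a2 (NKCC1) loads and Slc12a5 (KCC2) lowers. Immature cortical neurons are known for high NKCC1 and low KCC2, so that GABA can depolarize them. Ptf1a binds E-boxes, whose letters are CANNTG, together with an E-protein and an Rbpj family partner.

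The sequence just upstream of the start is shown for Gad1, Gad2 and Slc6a11, which were higher with Ptf1a, and for Slc32a1, which was barely detected in either group. Each is the 250 bases before the RefSeq transcript start on GRCm38.p6, given 5′ to 3′ on the + strand, with every CANNTG match in capitals. The windows are chr2:70561879-70562128 for Gad1, chr2:22622077-22622326 for Gad2, chr6:114130991-114131240 for Slc6a11 and chr2:158610508-158610757 for Slc32a1.
Gad1: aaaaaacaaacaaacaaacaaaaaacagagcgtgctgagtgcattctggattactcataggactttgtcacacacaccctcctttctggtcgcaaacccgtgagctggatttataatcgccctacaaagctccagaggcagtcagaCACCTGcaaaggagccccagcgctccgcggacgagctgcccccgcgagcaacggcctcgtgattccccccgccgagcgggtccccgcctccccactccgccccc
Gad2: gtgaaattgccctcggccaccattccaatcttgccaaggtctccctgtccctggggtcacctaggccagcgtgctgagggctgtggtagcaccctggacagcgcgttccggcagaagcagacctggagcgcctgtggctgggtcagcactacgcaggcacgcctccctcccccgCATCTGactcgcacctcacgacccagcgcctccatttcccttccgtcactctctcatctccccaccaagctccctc
Slc6a11: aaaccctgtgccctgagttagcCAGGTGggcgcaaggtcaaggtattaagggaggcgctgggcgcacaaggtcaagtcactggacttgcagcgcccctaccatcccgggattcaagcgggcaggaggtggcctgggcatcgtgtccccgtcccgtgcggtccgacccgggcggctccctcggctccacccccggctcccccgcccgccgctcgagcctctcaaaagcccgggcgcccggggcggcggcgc
Slc32a1: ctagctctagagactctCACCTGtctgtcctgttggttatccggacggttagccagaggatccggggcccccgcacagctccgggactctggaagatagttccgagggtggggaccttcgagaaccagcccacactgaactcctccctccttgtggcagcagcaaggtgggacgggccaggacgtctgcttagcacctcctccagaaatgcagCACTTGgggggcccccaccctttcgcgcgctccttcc
Of the 9 genes, 7 were matched in the RefSeq promoter table, and Abat and Slc12a2 were not. The Gad1, Gad2 and Slc6a11 windows held 1 E-box each and the Slc32a1 window 2. The form CACCTG, which is a special case of the E-box and was searched on both strands, lay 104 to 99 bases before the start in Gad1, 228 to 223 bases before it in Slc6a11 (on the opposite strand) and 233 to 228 bases before it in Slc32a1. The Gad2 window held another form, 76 to 71 bases before the start. Among 27018 promoters of the same length, 66.1% held an E-box and 17.1% held CACCTG. That form also lay upstream of Slc12a5 and Aldh5a1, whose rows had no test. A further form, CAGCTG, was also searched and was in none of the windows shown and in 12.8% of all promoters. The core of the Rbpj site, TGGGAA, was also searched on both strands. It was in none of these windows and in 21.5% of all promoters. The match of letters is a description of these windows and says nothing of binding.

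Transcripts of both GABA-synthesizing enzymes were higher in Ptf1a-misexpressing cells, at low levels in either group. Gad2, which encodes the 65 kDa form that is enriched at nerve terminals, stood at 3.39 FPKM in the Ptf1a group and 1.05 FPKM in the GFP-only group. The authors' deposited table gives a log2 fold of 1.69 with p = 5e-05 and q = 0.000329, and the fold divided by the deposited test statistic gives an implied standard error of 0.42. That p is the smallest in the table, shared by 1803 of 11876 tested genes, so it does not rank Gad2 among them. Gad1, the 67 kDa form that makes most GABA in the cell body, stood at 1.16 FPKM in the Ptf1a group and 0.522 FPKM in the GFP-only group. In the authors' deposited table its log2 fold was 1.16 with q = 0.00390 and an implied standard error of 0.73. The Gad1 statistic is smaller than its p would give under a normal distribution: the two-sided normal p is 0.114, adjusted to 0.471 over all tested genes, against an adjusted 0.00214 for Gad2. Gad1 is therefore called by the authors' test and not by the normal reading of their statistic, while Gad2 is called by both.

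On mm9, Gad2 spans 22477847 to 22549397 of chromosome 2, and the table places Gad1 farther along that chromosome in a locus (70327997 to 70440069) it shares with 1500002O10Rik and 4933404M02Rik. Those uncharacterized genes were untested, at 0.187 and 0.354 FPKM in the Ptf1a group and 0.103 and 0.206 FPKM in the GFP-only group. Gad2 was the more abundant of the pair in both groups, with a Gad2 to Gad1 ratio of 2.91 in the Ptf1a group and 2.01 in the GFP-only group. The sum of Gad1 and Gad2 was 4.55 FPKM in the Ptf1a group and 1.57 FPKM in the GFP-only group. The vesicular glutamate transporters Slc17a6 and Slc17a7, which mark excitatory neurons, together stood at 7.77 FPKM in the Ptf1a group and 9.05 FPKM in the GFP-only group. The glutamate transporter sum was thus 1.71 times the Gad sum in the Ptf1a group and 5.76 times in the GFP-only group. Neither ratio has an error or a test. In the authors' deposited table neither Slc17a6 (q = 0.427) nor Slc17a7 (q = 0.0661) was called. In bulk RNA, a change in the share of cells that express a gene cannot be told apart from a change in RNA per cell.

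Slc32a1 encodes VGAT, without which GABA is not packed into vesicles, and its transcript was barely detected in either group. The gene (chromosome 2, 158436494 to 158441483, mm9) stood at 0.104 FPKM in the Ptf1a group and 0.0658 FPKM in the GFP-only group, in a row to which the authors gave no test. A level below Slc32a1 was found in 36.4% of all rows in the Ptf1a group and 35.4% in the GFP-only group. For Gad2 that share was 69.9% in the Ptf1a group and 58.5% in the GFP-only group. The Gad sum was 44.0 times Slc32a1 in the Ptf1a group and 23.9 times in the GFP-only group. With no test and no depth, a difference in Slc32a1 between the groups was not detectable here.

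**Figure D1:**
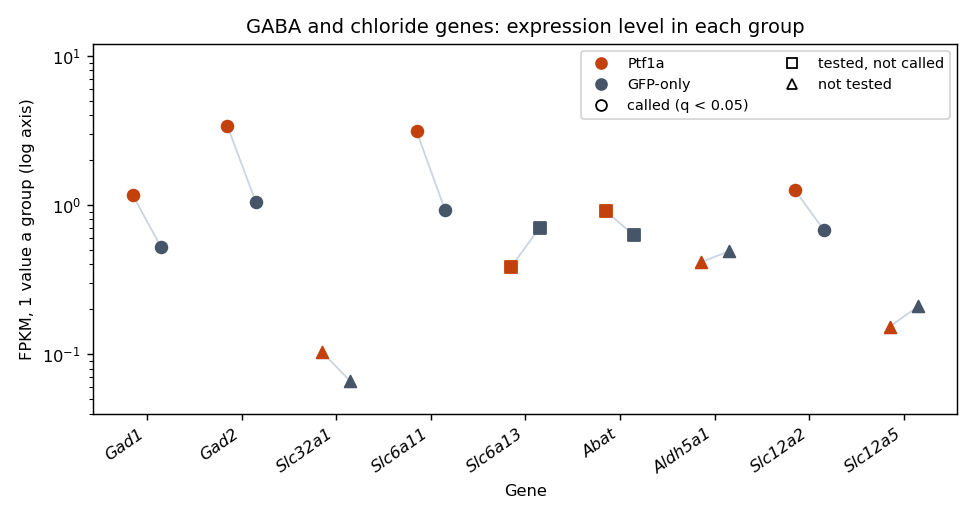
Level of each of the 9 genes in the Ptf1a group (orange, left of each pair) and the GFP-only group (grey, right), in FPKM on a log axis, 1 value a group with no replicate error. Gad2 and Slc6a11 reach 3.39 and 3.11 FPKM with Ptf1a, while Slc32a1 and Slc12a5 lie at or under 0.209 FPKM in both groups (triangles, not tested).

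Of the 2 membrane GABA transporters, Slc6a11 rose and Slc6a13 was not called. Slc6a11 encodes the GABA transporter found mainly on astrocytes in the mature brain, and stood at 3.11 FPKM in the Ptf1a group and 0.927 FPKM in the GFP-only group. The authors' deposited table gives it a log2 fold of 1.75, the highest of the 9 genes, with q = 0.000329 and an implied standard error of 0.46. The normal reading of the statistic called it as well, with an adjusted p of 0.00452. Slc6a13 encodes the GABA and taurine transporter known from the meninges, liver and kidney. It stood at 0.386 FPKM in the Ptf1a group and 0.705 FPKM in the GFP-only group. Its log2 fold of -0.87 in the authors' deposited table, with an implied standard error of 0.86, was not called (q = 0.101). Slc6a11 was 8.07 times Slc6a13 in the Ptf1a group and 1.31 times in the GFP-only group.

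Slc6a12, the betaine and GABA transporter beside Slc6a13, was listed at 0 in both groups. By the coordinates of the authors' table (mm9), Slc6a11 spans 114081235 to 114199880 and Slc6a13 spans 121250314 to 121287736, both on chromosome 6.

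Neither breakdown enzyme was called. Abat, the GABA transaminase (chromosome 16, 8513522 to 8621660, mm9), stood at 0.907 FPKM in the Ptf1a group and 0.625 FPKM in the GFP-only group. In the authors' deposited table its log2 fold was 0.54 with p = 0.0411 and q = 0.0931, and the implied standard error was 0.58. Aldh5a1, the succinic semialdehyde dehydrogenase that takes up the Abat product (chromosome 13, 24997469 to 25029530, mm9), stood at 0.413 FPKM in the Ptf1a group and 0.489 FPKM in the GFP-only group, in a row without a test. The Gad sum was 5.02 times Abat in the Ptf1a group and 2.52 times in the GFP-only group.

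The chloride loader rose while the chloride extruder was hardly detected. Slc12a2, on chromosome 18, stood at 1.25 FPKM in the Ptf1a group and 0.683 FPKM in the GFP-only group. The authors' deposited table gives a log2 fold of 0.88 with p = 0.0001 and q = 0.000612, and the implied standard error was 0.47. As for Gad1, the normal reading of the statistic did not call it, with an adjusted p of 0.337. Slc12a5 (chromosome 2, 164793488 to 164825231, mm9) stood at 0.153 FPKM in the Ptf1a group and 0.209 FPKM in the GFP-only group and had no test. Slc12a2 exceeded Slc12a5 8.19-fold in the Ptf1a group and 3.26-fold in the GFP-only group, so the loader's transcript was the more abundant in both.

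**Figure D2:**
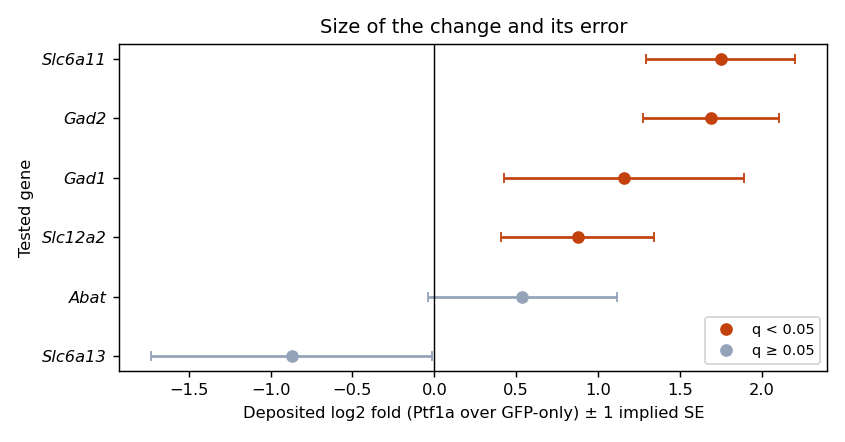
Deposited log2 fold (Ptf1a over GFP-only) of the 6 tested genes, with bars of 1 implied standard error, which is the fold divided by the deposited test statistic. Slc6a11 and Gad2 lie at 1.75 and 1.69 with errors under 0.5, Gad1 at 1.16 has a wider error of 0.73, and Slc6a13 is the sole gene below 0.

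In all, 4 of the 6 tested genes (Gad1, Gad2, Slc6a11 and Slc12a2) rose at a deposited q under 0.05 and 0 fell, where 18.7% of all tested genes rose and 19.1% fell by the same rule. By the normal reading of the statistic 2 rose (Gad2 and Slc6a11), where 3.3% of tested genes rose and 2.8% fell. Tests were given to 6 of the 9 genes, and the 3 without one (Slc32a1, Aldh5a1 and Slc12a5) were all under 0.5 FPKM in both groups. A gene could enter the test through its higher group alone, so the 6 are not a neutral sample of the 9. The median difference in log2(FPKM + 0.1), Ptf1a minus GFP-only, was 0.47 over all 9 genes and -0.01 over all tested genes.

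The level of a gene moved with its direction across the whole table, which bears on genes as weak as these. With tested genes split into 10 bins of mean FPKM, the median difference was 0.47 in the lowest bin (0.272 to 0.751 FPKM) and -0.32 in the highest. Gad1, Slc12a2 and Abat lay in the second bin, where 26.1% of genes rose and 8.00% fell. Gad2 and Slc6a11 lay in the fourth bin, where 24.0% rose and 8.75% fell. Within its bin, 3.62% of genes had a larger log2 difference than Gad2 and 3.45% a larger one than Slc6a11. The corresponding share was 11.7% for Gad1, 18.2% for Slc12a2 and 32.4% for Abat. In the lowest bin, 91.0% of genes had a larger difference than Slc6a13. Gad2 and Slc6a11 thus lay near the upper edge of genes of their own level, and Abat well inside it.

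**Figure D3:**
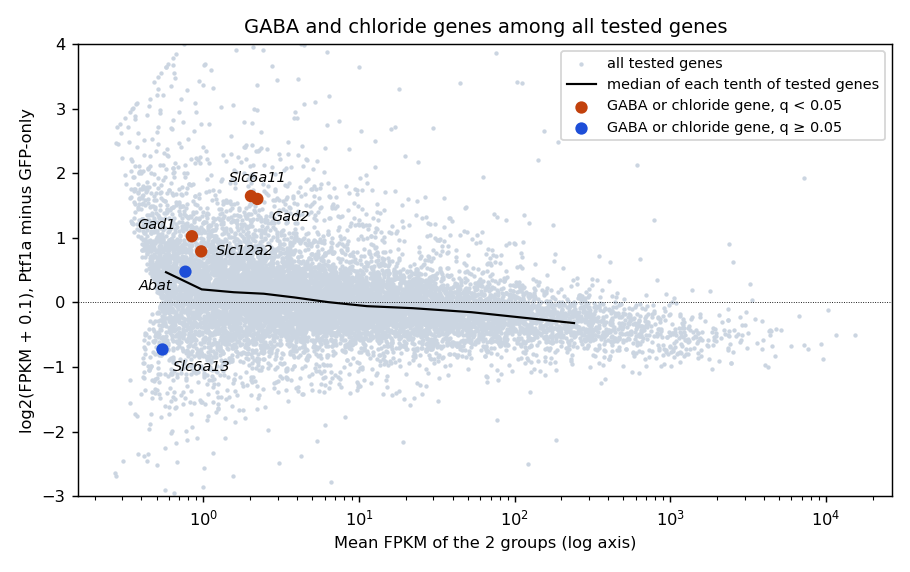
Difference in log2(FPKM + 0.1), Ptf1a minus GFP-only, against mean FPKM (log axis) for all tested genes (light points), with the median of each of 10 bins (line) and the 6 tested GABA and chloride genes (large points); 70 genes beyond -3 to 4 are not drawn. The line runs above 0 at low levels and below 0 at high levels, and Gad2 and Slc6a11 sit farther above it than Gad1, Slc12a2 and Abat.

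Genes that feed, anchor or surround the same pathway were counted in 9 further lists, 102 genes of which 70 were tested. Of these, 17 rose (24.3%) and 11 fell (15.7%), with a median log2 difference of 0.07. Those shares are near the 18.7% and 19.1% of all tested genes.

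Supply of the Gad cofactor pyridoxal phosphate was uneven. Pdxk, the kinase that makes it from dietary forms, rose to 1.24 FPKM in the Ptf1a group, against 0.687 FPKM in the GFP-only group. The phosphatase Pdxp fell to 12.3 FPKM in the Ptf1a group, against 24.5 FPKM in the GFP-only group. The list had 1 risen and 2 fallen of 8 tested, with the chaperone genes Hspa8 and Dnajc5 among the uncalled. In the putrescine route, by which some cells make GABA without Gad, Odc1 fell to 20.3 FPKM in the Ptf1a group, against 25.6 FPKM in the GFP-only group. It was the 1 called gene of 5 tested there, with Sat1 and Sat2 uncalled.

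Among enzymes next to the GABA shunt in mitochondria, 1 rose and 3 fell of 11. Sdhb, a subunit of succinate dehydrogenase, fell to 675 FPKM in the Ptf1a group, against 964 FPKM in the GFP-only group, and D2hgdh and Akr7a5 were the other two that fell. Suclg1 and Sucla2, subunits of succinyl-CoA synthetase, were uncalled.

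Carriers that bring glutamate and glutamine, the raw material of GABA, rose in 4 of 11 tested genes and fell in 1. The glial glutamate transporter Slc1a3 stood at 19.7 FPKM in the Ptf1a group and 7.47 FPKM in the GFP-only group, with q = 0.000329 in the authors' deposited table. The glutamine carriers Slc38a3 (3.16 FPKM in the Ptf1a group, 1.23 FPKM in the GFP-only group) and Slc38a1 (16.0 FPKM in the Ptf1a group, 10.8 FPKM in the GFP-only group) also rose. Slc1a1, the neuronal glutamate transporter, fell to 1.70 FPKM in the Ptf1a group, against 2.50 FPKM in the GFP-only group. Got1 and Got2 were uncalled.

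Relatives of Slc6a11 and Slc12a2 were mostly too weak to be tested, and those that were moved in either direction. Of 17 other Slc6 genes 12 had no test. Slc6a15, a neutral amino acid carrier, fell to 2.10 FPKM in the Ptf1a group, against 4.13 FPKM in the GFP-only group. The taurine transporter Slc6a6 fell and the creatine transporter Slc6a8 rose, while Slc6a17 was uncalled. Of 7 other Slc12 genes 3 were tested, and Slc12a8 rose to 0.603 FPKM in the Ptf1a group, against 0.159 FPKM in the GFP-only group. Slc12a9 (1.00 FPKM in the Ptf1a group, 1.31 FPKM in the GFP-only group) was uncalled.

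Of 10 tested regulators of chloride cotransport, 4 kinase genes rose and 0 genes fell, where 18.7% of all tested genes rose and 19.1% fell. WNK kinases activate the kinases that Stk39 (SPAK) and Oxsr1 (OSR1) encode, which phosphorylate NKCC1 to turn it on and KCC2 to turn it off. Oxsr1 stood at 1.94 FPKM in the Ptf1a group and 1.03 FPKM in the GFP-only group. Stk39 stood at 5.84 FPKM in the Ptf1a group and 4.02 FPKM in the GFP-only group. Wnk1 stood at 1.61 FPKM in the Ptf1a group and 1.08 FPKM in the GFP-only group, and Wnk2 at 3.34 FPKM in the Ptf1a group and 2.56 FPKM in the GFP-only group. The q values in the authors' deposited table were 0.000329 for Oxsr1, 0.00447 for Stk39, 0.00409 for Wnk1 and 0.0416 for Wnk2, and none of the 4 was called by the normal reading of the statistic. The kinase gene Stk24 (1.83 FPKM in the Ptf1a group, 1.62 FPKM in the GFP-only group) was uncalled, as were Ckb and Ppp1ca, the most abundant regulators, and Wnk4 had no test.

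Other chloride, bicarbonate and sodium routes had 5 risen and 2 fallen of 16. Car2, a carbonic anhydrase that supplies bicarbonate, stood at 5.98 FPKM in the Ptf1a group and 2.01 FPKM in the GFP-only group. The anion exchanger Slc26a6 and the scramblase and channel gene Ano6 rose, and the chloride transporters Clcn3 and Clcn4-2 were uncalled. Of the bestrophins and the receptor subunits of tonic inhibition, Gabra4 alone was tested and was uncalled.

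**Figure D4:**
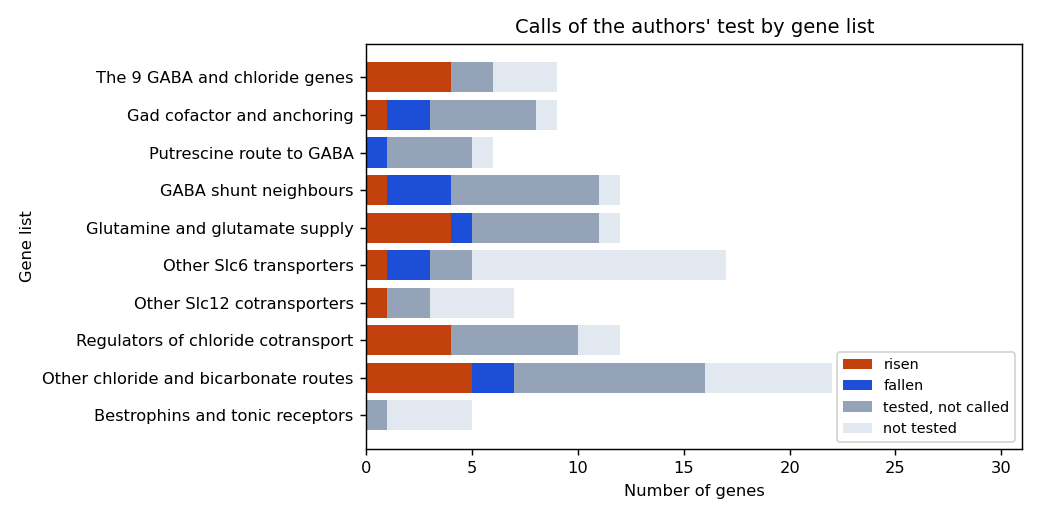
Number of genes that rose (orange), fell (blue), were tested without a call (grey) or were not tested (pale) in the 9 GABA and chloride genes and in each of the 9 lists around them. Regulators of chloride cotransport had 4 risen and 0 fallen, while enzymes next to the GABA shunt had 1 risen and 3 fallen. Of all tested genes 18.7% rose and 19.1% fell.

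Markers of other cells moved in either direction, depending on the list. The share over all tested genes, to be set beside each list, was 18.7% risen and 19.1% fallen. Of 15 markers of ventral interneurons, the cells that make most cortical GABA, 7 were tested, 5 rose, among them Dlx5, Lhx6, Sp8 and Lhx8, and 0 fell. Their summed level was 16.3 FPKM in the Ptf1a group and 8.81 FPKM in the GFP-only group. Sp8 stood at 0.878 FPKM in the Ptf1a group and 0.274 FPKM in the GFP-only group, and Lhx6 at 1.72 FPKM in the Ptf1a group and 0.691 FPKM in the GFP-only group. The normal reading of the statistic called neither, with an adjusted p of 0.141 for Sp8 and 0.209 for Lhx6. Of these markers Dlx6, which had no test, stood at 0.149 FPKM in the Ptf1a group and was listed at 0 in the GFP-only group. All 12 radial glia markers rose, with a sum of 3506 FPKM in the Ptf1a group and 1828 FPKM in the GFP-only group, led by Pax6 and Nes. Of 9 astrocyte markers 5 were tested and 3 rose (sum 164 FPKM in the Ptf1a group, 85.4 FPKM in the GFP-only group). Gfap, which had no test, was listed at 0 in the GFP-only group and stood at 0.182 FPKM in the Ptf1a group. The part of interneurons in the Gad1 and Gad2 values, and of radial glia or astrocytes in the Slc6a11, Slc12a2 and Slc1a3 values, was not tested.

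Pyramidal neuron markers fell in 9 of 13 and rose in 1, led by Bhlhe22 and Tbr1, with a sum of 1369 FPKM in the Ptf1a group and 1967 FPKM in the GFP-only group. Beside Slc6a13, 4 of 12 meningeal fibroblast markers were tested: Crabp2 and Igf2 rose, Dcn fell and Lum was uncalled. All 12 summed to 8.70 FPKM in the Ptf1a group and 5.71 FPKM in the GFP-only group, but without Crabp2 the other 11 summed to 3.52 FPKM in the Ptf1a group and 4.73 FPKM in the GFP-only group. Foxc1 and Foxd1, both without a test, stood at 0.0304 and 0.0169 FPKM in the Ptf1a group and were listed at 0 in the GFP-only group. Choroid plexus cells also express Slc12a2. Of their 7 markers 1 was tested, the choroid product Ttr, and it fell. All 7 summed to 7.77 FPKM in the Ptf1a group and 31.8 FPKM in the GFP-only group. Folr1 and Aqp1, both without a test, stood at 0.287 and 0.0449 FPKM in the Ptf1a group and were listed at 0 in the GFP-only group. Without Ttr the other 6 summed to 0.857 FPKM in the Ptf1a group and 0.360 FPKM in the GFP-only group. Oligodendrocyte lineage markers had 0 called of 1 tested (sum 1.70 FPKM in the Ptf1a group, 1.26 FPKM in the GFP-only group). Vascular and pericyte markers had 2 risen of 3, Pdgfrb and Rgs5 (sum 7.49 FPKM in the Ptf1a group, 4.08 FPKM in the GFP-only group). Microglia markers had 1 fallen of 5, Tyrobp (sum 11.6 FPKM in the Ptf1a group, 16.6 FPKM in the GFP-only group). Red blood cell markers had 3 fallen of 5, with Hba-x and Hbb-y among them and Hbb-bh1 listed at 0 in both groups (sum 62.1 FPKM in the Ptf1a group, 149 FPKM in the GFP-only group).

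**Figure D5:**
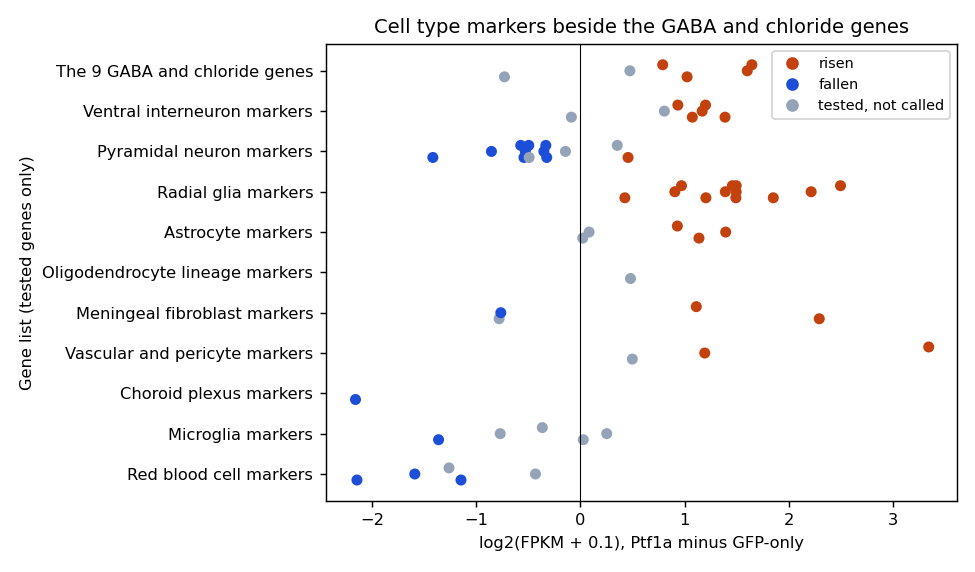
Difference in log2(FPKM + 0.1), Ptf1a minus GFP-only, for each tested gene of the GABA and chloride set and of 10 cell type marker lists (orange risen, blue fallen, grey not called). All 12 radial glia markers and 5 of 7 tested interneuron markers rose, and 9 of 13 pyramidal markers fell. Of all tested genes 18.7% rose and 19.1% fell.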

How the data were processed

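RNA of sorted GFP-positive cells (2.1 to 7.8 ng a sample) underwent low-input amplification and paired 50 bp sequencing, per the labels' protocols. The tools named are Cufflinks 2.1.1 with Cuffdiff, TopHat2 2.0.8 and CASAVA 1.8.2, and the build is mm9, per the submitters' processing notes; annotation, strand setting and parameters are not given in the sources used here. The deposited table holds 1 FPKM value per gene and group, the log2 fold of Ptf1a over GFP-only, and a signed test score with its p-value and q-value, per the file headers. Column PIG was read as the Ptf1a group, since the other column is headed GFP. Replicates are pools of brains, and depth per sample is unknown.

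Calls used a deposited q under 0.05, adjusted by the authors over 11876 tested genes; recomputing it differed by at most 5.2e-07. The 2-sided normal p of the test score was adjusted over tested genes with a finite score (45 lacked one), in a step tested on simulated data. Coordinates are mm9, starts counted from 1. Gad1, Gad2 and Aldh5a1 share their locus with other rows, so how overlapping reads were divided bears on their values. Named genes are the 9, and up to 4 called and 2 uncalled per pathway list by size and level. Each marker list gave up to 2 called genes and any marker at 0 in both groups. Marker genes beyond these, Stk24, Wnk4, Slc6a12, Slc17a6, Slc17a7, Neurod6 and locus neighbours were chosen after their values were seen. With 2 group values, no likeness between genes was measured. Of the list symbols, 3 had no row. Members and lists were chosen with earlier results of these data known. Python 3.11.15, pandas 2.3.3, scipy 1.17.1. Some genes that the naming rule picks are not reported here.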

Additional observations from a re-analysis of the deposited data

How the results depend on the processing

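The 4 risen genes stayed at 4 with a q threshold of 0.01 and with a minimum of 1 FPKM, were 5 at a q threshold of 0.1 (Abat added, log2 difference 0.47), 3 when a 2-fold change was also asked, and 2 by the normal p, under which Gad1 (log2 difference 1.02) and Slc12a2 (0.79) lost their call; the cause was not tested. None of the 9 fell under any of these 5 settings. Pathway genes outside the 9 had 17 risen and 11 fallen. These were 3 and 1 by the normal p, 8 and 0 with the 2-fold rule, and 5 fallen at a q threshold of 0.01. The median log2 difference over the 9 was 0.58 and 0.23 with pseudocounts of 0.01 and 1, 0.48 after centring on all tested genes, and 0.91 over the 6 tested. The same pseudocount in both groups cannot change a direction, and centring on all tested genes took away only their median of -0.01. Neither setting could therefore test direction. None of the 6 tested genes changed direction after centring on genes of the same level. No replicate could be left out, since the table has 1 value a group. No paired analysis was possible because the columns carry no sample numbers. No depth was known, so the absence of a test for Slc32a1, Aldh5a1 and Slc12a5 could not be read as absence of change.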

Other observations

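Rows next to the 9 loci were listed for both sides, 18 in all, of which 10 were tested, 2 rose and 2 fell. These counts are near the shares over all tested genes, of which 18.7% rose and 19.1% fell. The neighbours were chosen after their values were seen. Slc32a1 had the closest neighbour. Gm14204 (chromosome 2, 158421208 to 158436459, mm9) ends 34 bases before Slc32a1 starts (158436494), and GENCODE M21 lists it as a processed transcript on the opposite strand. Gm14204 stood at 7.40 FPKM in the Ptf1a group and 2.92 FPKM in the GFP-only group, with a log2 fold of 1.34 and q = 0.000329 in the authors' deposited table and an implied standard error of 0.44. Slc32a1 itself stood at 0.104 FPKM in the Ptf1a group and 0.0658 FPKM in the GFP-only group. The strand setting of the authors' counting is not given in the sources used here, so reads of Gm14204 and of transcripts opposite to it cannot be told apart. On the other side, Actr5 stood at 0.933 FPKM in the Ptf1a group and 1.64 FPKM in the GFP-only group (q = 0.0191 in the authors' deposited table).

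Usp18, an interferon-induced protease gene 29378 bases before Slc6a13, stood at 6.27 FPKM in the Ptf1a group and 1.85 FPKM in the GFP-only group (q = 0.000329 in the authors' deposited table), whereas Slc6a13 was uncalled. Mettl22, beside Abat, fell to 37.2 FPKM in the Ptf1a group, against 67.4 FPKM in the GFP-only group (q = 0.000329 in the authors' deposited table).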
